A study of Homo sapiens with 8 samples.

Results

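The genes of cholesterol synthesis, uptake and efflux were examined in Caco-2 cells after exposure to L. plantarum MB452, a lactic acid bacterium taken from a probiotic product. The set was chosen by symbol, current or former, in the annotation of the array, and held 35 listed genes. They comprised 18 enzymes of sterol synthesis, 5 genes that control the sterol regulatory element binding proteins (SREBP), 6 genes of cholesterol uptake and trafficking, and 6 genes of efflux and esterification. The annotation used here named 34 of them, among 17969 genes tested, through 56 of the 44290 features of the array. FDFT1, which encodes squalene synthase, had no row under its name and is not analysed here. Of the 34 genes, 18 were read by over 1 feature and 16 by 1 feature, and all 56 features had values in each pool.

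Caco-2 cells derive from a human colorectal adenocarcinoma and grow into a polarised, enterocyte-like layer in culture. Monolayers were grown for 18 days in medium with serum and then kept for 10 h in medium listed without serum, either alone (control) or with suspended L. plantarum MB452 cells (optical density 0.9). RNA from 3 wells was joined into each pool, and there were 2 control pools (A and B) and 2 MB452 pools (A and B), so n = 2 in each group. The pools came from wells of 1 line, and no source used here describes them as separate experiments, so standard errors and p-values measure only the spread between these pools, which may be technical. Each pool was hybridised on 1 of 4 slides against a reference, described in the methods as common to all slides, and each slide was scanned at a high and a low setting. The values are log2 ratios of the pool over the reference, centred on the median of all features. Given a common reference, they give the difference between pools for a gene, and they hold no level that could be compared between genes. The sources used here do not state their base, which was read as 2, and every size below rests on that reading.

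Cells make cholesterol from acetyl-CoA through mevalonate, squalene and lanosterol, and the enzymes of this route are encoded by genes that SREBP transcription factors activate together. When sterols are plentiful, INSIG proteins hold SCAP and its SREBP cargo in the endoplasmic reticulum, and when sterols fall the complex moves to the Golgi, where SREBP is cut and released. Enterocytes also take up cholesterol from the gut lumen through NPC1L1, return sterols to the lumen through ABCG5 and ABCG8, and store cholesterol as esters made by SOAT enzymes.

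In treated cells, expression was increased for 3 synthesis enzymes (HMGCS1, SQLE and CYP51A1), for 2 genes of SREBP control (INSIG1 and SREBF2) and for STARD4, a sterol carrier of the cytosol. These 6 of 34 members, or 17.6%, passed the study's threshold, which asks for a fold change above 1.2 together with an unadjusted p below 0.05 from limma's moderated test, while 1.04% of all genes tested passed it in this direction and 1.91% in either. In the opposite direction 0 of the 34 members passed, against 0.868% of all genes. No member reached an adjusted p under 0.05 in limma, and neither did any other of the 17969 genes, the lowest adjusted p being 0.176, although 1166 genes had an unadjusted p under 0.05. Both MB452 pools lay above both control pools in 10 of 34 members (29.4%), compared with 17.6% of all genes, and below both in 8 (23.5%), compared with 19.5% of all genes. The groups overlapped in the remaining 16 members. When the low scan stood in for saturated features and the high scan alone was used for all others, a setting chosen after the data were seen, the members without overlap were 7 above (20.6%, against 17.5% of all genes) and 5 below (14.7%, against 19.8%). Equal amounts of RNA were pooled from the wells, so the ratios give relative amounts within that RNA. Neither the number of cells nor the RNA per cell was measured.

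The change was not shared by the whole set. The median log2 difference between MB452 and control pools over the 34 members was 0.0082, with 19 members above 0 and 15 below, beside a median of -0.0093 over all genes. All 5 genes of SREBP control had positive differences, with a median of 0.15 and a range of 0.020 to 0.87. INSIG1 and SREBF2 stayed positive under all alternatives, but the other genes of this class did not. INSIG2 had -0.076 without control pool A, SCAP had -0.080 without MB452 pool B, and SREBF1 had -0.033 with its feature of largest variance. Synthesis enzymes were divided, with 9 positive and 8 negative differences between -0.14 and 0.77 and a median of 0.0013. The 6 genes of uptake and trafficking had a median of -0.019, and the 6 genes of efflux and esterification had a median of -0.047 and no difference above 0.027.

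**Figure D1:**
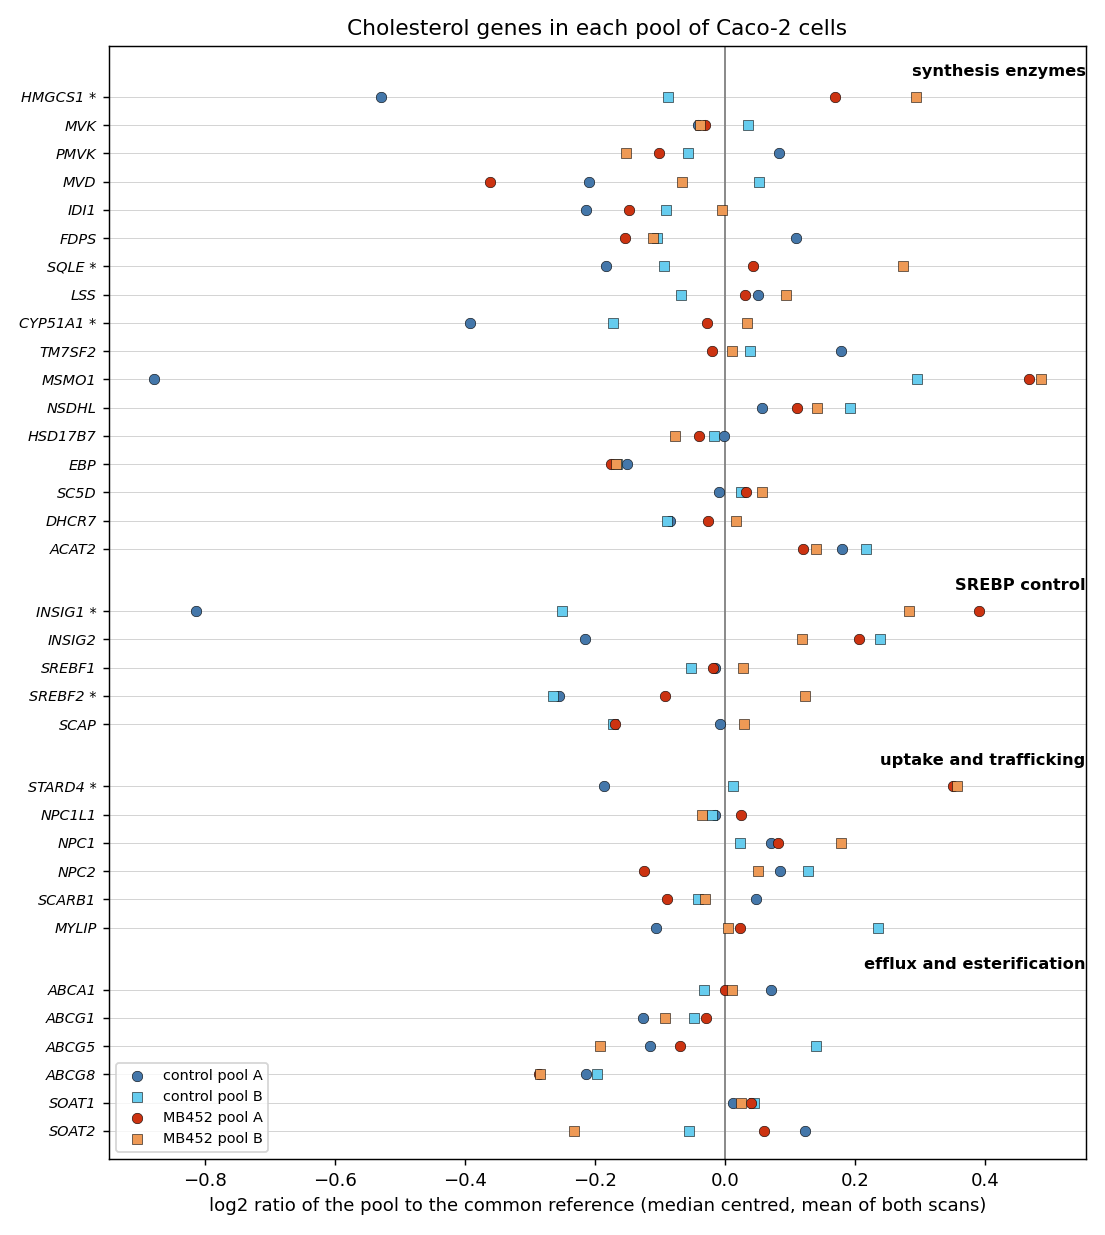
Log2 ratio of each pool to the common reference (horizontal axis, median centred, mean of both scans) for the 34 genes measured, grouped by class, with 1 point for each of 2 control and 2 MB452 pools. Asterisks mark the 6 genes past the threshold. Control pool A is the lowest of the 4 points in 14 genes, and lies at -0.88 for MSMO1 and -0.81 for INSIG1.

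The control pools were unequal for these genes. Control pool A was the lowest of the 4 pools in 14 of 34 members (41.2%) and in 23.4% of all genes. The median absolute difference between control pools A and B was 0.111 over the members and 0.0795 over all genes, while the MB452 pools differed by 0.0550 and 0.0633. With control pool A left out, 4 of the 6 genes (HMGCS1, INSIG1, SREBF2 and STARD4) passed the threshold, against 1.95% of all genes, and with MB452 pool B left out 2 did (INSIG1 and STARD4), against 1.06%. Without control pool B the count was 8, against 1.32% of all genes, since MSMO1 and INSIG2 joined the 6 genes, and without MB452 pool A it was 5, against 1.52%, CYP51A1 being lost. Where 1 pool stands alone, limma takes it to vary like the pools of the other group.

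INSIG1, on chromosome 7, encodes the endoplasmic reticulum protein that retains SCAP and is itself a well known target of SREBP. Its log2 ratios were -0.81 in control pool A and -0.25 in control pool B, and 0.39 and 0.28 in MB452 pools A and B. Both treated pools were therefore above both control pools, and the control pools were further from each other than the treated pools were. Expression was increased 1.83-fold, a log2 difference of 0.87 (SE 0.19, 95% confidence interval 0.40 to 1.34, adjusted p = 0.637 in limma). The 2 features of the gene gave 0.77 and 0.96, and the high and low scans gave 0.79 and 0.95. Leaving out each pool in turn gave 0.59 to 1.15, past the threshold each time.

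INSIG2, on chromosome 2, encodes the paralogue of INSIG1 with the same action on SCAP. Its ratios were -0.21 and 0.24 in the control pools and 0.21 and 0.12 in the MB452 pools, so the groups overlapped and only control pool A stood apart. The log2 difference was 0.15 (SE 0.15, confidence interval -0.24 to 0.54). It was -0.076 without control pool A and 0.38, past the threshold, without control pool B.

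SREBF2, on chromosome 22, encodes SREBP2, the SREBP most closely tied to sterol synthesis. Its ratios were -0.26 in both control pools, -0.093 in MB452 pool A and 0.12 in MB452 pool B. Here the control pools were alike and the spread lay between the treated pools. Expression was increased 1.21-fold, close to the fold minimum, with a log2 difference of 0.28 (SE 0.086, adjusted p = 0.712 in limma). Without MB452 pool B the difference was 0.17 and did not pass the threshold.

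SREBF1, which encodes the SREBP isoforms that mainly drive fatty acid synthesis, had a difference of 0.039 (SE 0.057, confidence interval -0.10 to 0.18). Its 2 features disagreed in sign, at 0.11 and -0.033. SCAP, the escort of SREBP, had a difference of 0.020 (SE 0.096, confidence interval -0.22 to 0.26). Neither gene passed the threshold, and the difference of INSIG1 lay above both intervals.

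The promoters of 29 of the 35 listed genes were matched by symbol in the RefSeq table of GRCh38.p14, and SQLE, FDFT1, ACAT2, SCARB1, ABCG1 and SOAT2 were not matched. Each promoter runs from 250 bases before to 50 bases after a start site. Those of SREBF2, INSIG1, STARD4 and HMGCS1, which were among the 6 genes past the threshold, are shown. The promoter of CYP51A1, also among the 6, is not shown. Its log2 difference (0.29) was above that of SREBF2 (0.28), so the promoters shown are not those of the largest changes. SREBF2 alone held the sterol regulatory element core, and HMGCS1 has a second promoter in the table, not shown, with Sp1 boxes and none of the other 3 motifs. They are written 5′ to 3′ along the strand of the gene, and capitals mark the core of the sterol regulatory element (TCACNCCAC), the palindromic E-box (CACGTG) and the NF-Y box (CCAAT, or ATTGG where it lies on the opposite strand).
SREBF2 promoter, chr22:41832855-41833154, plus strand: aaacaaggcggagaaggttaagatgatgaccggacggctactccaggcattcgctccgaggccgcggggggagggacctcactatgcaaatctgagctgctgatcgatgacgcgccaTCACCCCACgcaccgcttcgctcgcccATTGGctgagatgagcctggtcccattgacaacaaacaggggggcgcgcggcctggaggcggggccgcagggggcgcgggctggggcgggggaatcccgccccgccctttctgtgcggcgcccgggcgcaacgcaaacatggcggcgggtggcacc
INSIG1 promoter, chr7:155297628-155297927, plus strand: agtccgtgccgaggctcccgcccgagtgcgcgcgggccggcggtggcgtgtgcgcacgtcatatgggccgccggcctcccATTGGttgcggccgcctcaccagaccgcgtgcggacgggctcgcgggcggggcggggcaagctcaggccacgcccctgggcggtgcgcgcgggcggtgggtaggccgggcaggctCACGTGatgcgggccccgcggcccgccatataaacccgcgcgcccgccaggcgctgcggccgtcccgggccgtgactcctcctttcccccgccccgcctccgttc
STARD4 promoter, chr5:111512486-111512785, minus strand: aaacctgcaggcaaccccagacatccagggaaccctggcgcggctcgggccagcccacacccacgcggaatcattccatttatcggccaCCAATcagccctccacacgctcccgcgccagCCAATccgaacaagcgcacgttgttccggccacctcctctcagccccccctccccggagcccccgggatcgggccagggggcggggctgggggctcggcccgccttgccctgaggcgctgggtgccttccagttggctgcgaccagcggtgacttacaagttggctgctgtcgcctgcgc
HMGCS1 promoter 1, chr5:43313363-43313662, minus strand: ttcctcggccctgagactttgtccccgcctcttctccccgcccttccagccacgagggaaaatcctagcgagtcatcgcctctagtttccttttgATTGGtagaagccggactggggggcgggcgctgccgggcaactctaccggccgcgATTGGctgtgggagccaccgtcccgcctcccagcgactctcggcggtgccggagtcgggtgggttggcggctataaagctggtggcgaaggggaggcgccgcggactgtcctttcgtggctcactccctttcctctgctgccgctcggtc

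In the SREBF2 promoter the sterol regulatory element core lay at -133 to -125 from the start site (base 0), with an NF-Y box following it at -106 to -102. It was the only member of the 29 whose promoter held TCACNCCAC on either strand, and 1.13% of the 35116 promoters of the table held it. The INSIG1 promoter held CACGTG at -55 to -50 from its start site, as did those of 4 other members (LSS, SC5D, SCAP and ABCA1) at other positions, for 5 of 29 members. This E-box was present in 7.26% of all promoters. An NF-Y box was present in the promoters of 20 of 29 members and in 34.6% of all promoters, and the Sp1 box GGGCGG in those of 25 of 29 members and in 45.0% of all promoters. Counted over genes, which may have several promoters as the members do, these shares were 1.39%, 8.77%, 39.7% and 48.3% of 27305 genes for the 4 motifs in that order. The motifs were searched on both strands, and none of the 4 contains another. The STARD4 promoter held 2 NF-Y boxes and 1 Sp1 box. The CYP51A1 promoter held a Sp1 box alone. These matches describe the letters of the windows, and binding of any factor was not measured.

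Among the synthesis enzymes, HMGCS1 on chromosome 5 encodes the cytosolic synthase that makes HMG-CoA from acetoacetyl-CoA and acetyl-CoA, near the entry of the route. Its ratios were -0.53 and -0.087 in control pools A and B and 0.17 and 0.29 in MB452 pools A and B. The groups did not overlap, and the largest gap within a group was between the control pools. Of its 2 features, 1 was saturated in the high scan. With the low scan for saturated features and the high scan for the others, the gene had a log2 difference of 0.76. In the mean of both scans expression was increased 1.45-fold, a log2 difference of 0.54 (SE 0.15, confidence interval 0.16 to 0.93, adjusted p = 0.693 in limma). Without control pool A the difference was 0.32, still past the threshold, and without MB452 pool B it was 0.48 and not past it.

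SQLE, on chromosome 8, encodes squalene epoxidase, which carries out the first oxygenation step of the route. The 4 ratios were -0.18 and -0.093 in the control pools and 0.043 and 0.27 in the MB452 pools, with no overlap. Expression was increased 1.23-fold, with a log2 difference of 0.30 (SE 0.094, adjusted p = 0.712 in limma). The scans gave 0.22 (high) and 0.38 (low). Left out in turn, control pool A and MB452 pool B each took it below the threshold, at 0.25 and 0.18.

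CYP51A1, on chromosome 7, encodes lanosterol demethylase, a cytochrome P450 and the first enzyme after lanosterol. Ratios in the control pools were -0.39 and -0.17, and those in the MB452 pools were -0.028 and 0.035. The treated pools were both above the control pools. Both features were positive, at 0.21 and 0.36, but the first was saturated in the high scan (-0.0075) and gave 0.42 in the low scan. With the low scan for saturated features and the high scan for the others, the gene had 0.38. In the mean of both scans expression was increased 1.22-fold, with a log2 difference of 0.29 (SE 0.088, adjusted p = 0.712 in limma). The difference passed the threshold without control pool B (0.40). It did not pass without control pool A (0.18), nor with either MB452 pool left out (0.32 without A, 0.25 without B).

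MSMO1, on chromosome 4, encodes a methylsterol oxidase that removes methyl groups after the CYP51A1 step, and it had the largest difference of the class without passing the threshold. The ratio was -0.88 in control pool A, 0.30 in control pool B, 0.47 in MB452 pool A and 0.49 in MB452 pool B. Control pool A alone was low, and the other 3 pools lay between 0.30 and 0.49. The log2 difference was 0.77 (SE 0.37, confidence interval -0.16 to 1.70, adjusted p = 0.796 in limma). Without control pool A it was 0.18, and without control pool B it was 1.36 and past the threshold.

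The other 13 synthesis enzymes had differences between -0.14 and 0.082, and 0 of them passed the threshold, against 1.91% of all genes in either direction. In the mevalonate segment, PMVK and MVD, which act on phosphorylated mevalonate, both had -0.14 (SE 0.071 and 0.13). FDPS, which makes farnesyl pyrophosphate, had -0.13 (SE 0.086). These were the lowest values of the class in the mean of both scans, and a feature of MVD was saturated in both scans. With the low scan for saturated features, and features saturated in both left out, the order changed. FDPS then had -0.16, SC5D -0.11, MVD -0.095 and PMVK -0.088. MVK, which phosphorylates mevalonate, had -0.031, and ACAT2, the thiolase at the entry of the route, had -0.069. Both MB452 pools were above both control pools for SC5D and DHCR7 and below both for PMVK, FDPS, ACAT2, TM7SF2, HSD17B7 and EBP. With the low scan for saturated features and the high scan for the others, this held for DHCR7 and ACAT2, while the groups overlapped for PMVK, FDPS, TM7SF2, HSD17B7 and EBP and both MB452 pools of SC5D were below both control pools. EBP was saturated on 3 of the 4 high scans. In the segment after lanosterol, TM7SF2, a sterol reductase, had -0.11 (SE 0.069), HSD17B7, a ketoreductase, -0.049, EBP, a sterol isomerase, -0.013 and NSDHL, a partner of MSMO1 in demethylation, 0.0013. LSS, which cyclises the squalene epoxide to lanosterol, had 0.072 over 4 features that were all positive, from 0.030 to 0.11.

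The scans of 5 of these enzymes differed in sign. High and low scans gave -0.030 and 0.18 for IDI1, the isomerase of isopentenyl pyrophosphate, and DHCR7, the enzyme of the last step from 7-dehydrocholesterol, had -0.0075 and 0.17. SC5D, a sterol desaturase, had -0.11 and 0.19, HSD17B7 had 0.0016 and -0.10, and NSDHL had 0.025 and -0.022. The mean of both scans was 0.076 (SE 0.079) for IDI1, 0.082 (SE 0.055) for DHCR7 and 0.037 (SE 0.055) for SC5D, and the spots of IDI1 and DHCR7 were saturated in the high scan.

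**Figure D2:**
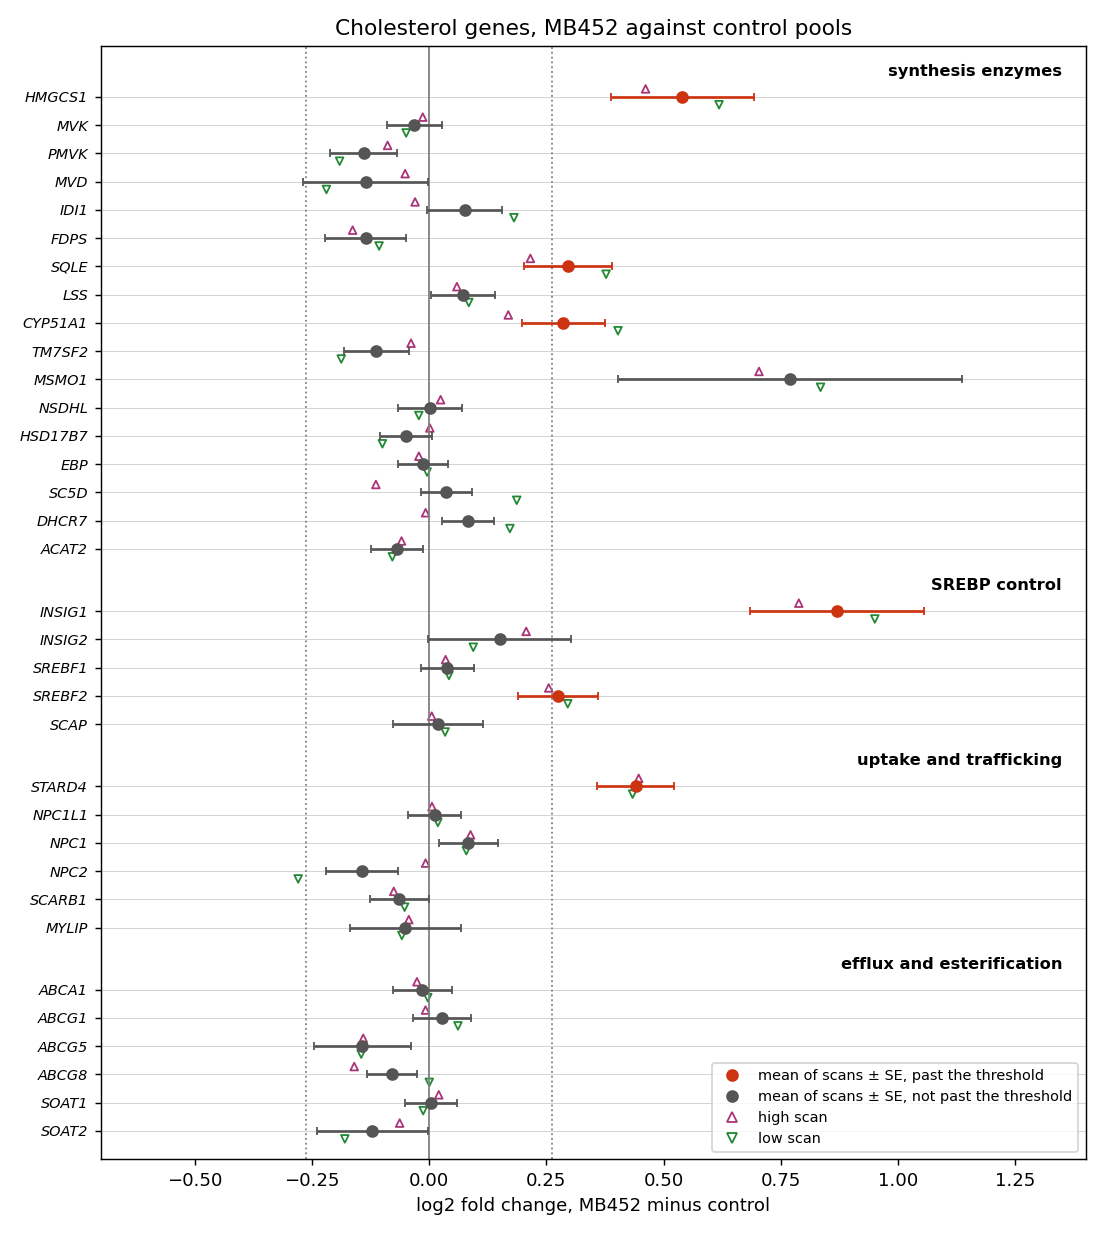
Log2 fold change, MB452 minus control, of the 34 genes measured (horizontal axis), by class. Circles with bars give the mean of both scans ± SE (n = 2 pools in each group), red circles mark the 6 genes past the threshold, triangles give each scan, and dotted lines mark a 1.2-fold difference in either direction.

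STARD4, on chromosome 5, encodes a carrier that moves cholesterol between membranes through the cytosol, and had the lowest unadjusted p of the members. The ratios in control pools A and B were -0.19 and 0.013, and those in MB452 pools A and B were 0.35 and 0.36. The treated pools were nearly equal and both above the control pools. Expression was increased 1.36-fold, a log2 difference of 0.44 (SE 0.082, confidence interval 0.23 to 0.65, adjusted p = 0.637 in limma). Its single feature gave 0.45 and 0.43 in the high and low scans. Leaving out each pool in turn gave 0.34 to 0.54, past the threshold each time.

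The other uptake and trafficking genes had differences between -0.14 and 0.084 in the mean of both scans. NPC1, the membrane protein that exports cholesterol from lysosomes, had 0.084 (SE 0.063). Its treated pools were above the control pools in the mean of both scans, but the groups overlapped in each scan alone. Its partner NPC2, a soluble lysosomal protein that hands cholesterol to NPC1, had -0.14 (SE 0.077), with both MB452 pools below both control pools. NPC1L1, the brush border transporter for dietary cholesterol, had 0.012 (confidence interval -0.13 to 0.16), its 2 features giving -0.029 and 0.054. SCARB1, the receptor for high density lipoprotein, had -0.064, and its 3 features gave -0.044, 0.076 and -0.22. MYLIP, a ubiquitin ligase that directs lipoprotein receptors to degradation, had -0.051 (SE 0.12), with features at -0.12 and 0.023 and with control pools at -0.11 and 0.24.

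None of the 6 genes of efflux and esterification passed the threshold. With 1.91% of all genes passing in either direction, 6 genes may hold none. ABCG5, on chromosome 2, had the largest difference. It encodes a transporter that works together with ABCG8 to return sterols to the lumen. The ratios were -0.12 and 0.14 in control pools A and B and -0.069 and -0.19 in MB452 pools A and B, so the groups overlapped. The log2 difference was -0.14 (SE 0.10, confidence interval -0.40 to 0.12, adjusted p = 0.819 in limma), and leaving out control pool A gave -0.27, which passed the threshold. In that fit 7.43% of all genes passed as decreased, and ABCG5 was the only member of 34 to do so.

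ABCG8 had a difference of -0.080 (SE 0.054), with both MB452 pools below both control pools, but the high and low scans gave -0.16 and 0.00043. ABCA1, which passes cholesterol to apolipoprotein A-I and is a well known target of liver X receptors, had -0.014 (confidence interval -0.17 to 0.14), from features at 0.0083, -0.083 and 0.032. ABCG1, which passes cholesterol to high density lipoprotein, had 0.027 (confidence interval -0.13 to 0.18), with -0.0076 and 0.062 in the high and low scans. The acyltransferases SOAT1 and SOAT2, which esterify cholesterol, had 0.0040 (confidence interval -0.13 to 0.14) and -0.12 (confidence interval -0.42 to 0.18). The 2 features of SOAT1 gave 0.058 and -0.050, and its scans gave 0.021 and -0.013. The intervals of ABCA1, ABCG1, ABCG8 (-0.22 to 0.057) and SOAT1 stayed within a 1.2-fold difference, 0.26 on the log2 scale, in either direction.

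For 8 features of these genes the high scan was saturated and held almost no difference between the groups. Each column held 1 value that many features shared, 1201 to 1534 of them per high scan and 310 to 397 per low scan, and such features were read as saturated in both channels. Of the 56 features of the members, 6 were saturated in this way on the 4 high scans (1 each of HMGCS1, CYP51A1, DHCR7, MVD, NPC2 and SCARB1) and 2 on 3 of them (IDI1 and EBP). The low scan was saturated for 1 of them, that of MVD, so its difference is not a measurement in either scan, and the other feature of MVD gave -0.14.

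In the low scan the saturated HMGCS1 feature had ratios of -0.65 and -0.39 in the control pools and -0.030 and 0.18 in the MB452 pools. That is a log2 difference of 0.60, against -0.0075 in the high scan. The second HMGCS1 feature, which was not saturated, gave 0.64 in the low scan and 0.93 in the high scan. The CYP51A1 feature had -0.50 and -0.40 in the control pools and -0.061 and -0.00032 in the MB452 pools, a difference of 0.42. For both genes the treated pools lay above the control pools by more than the pools of a group differed.

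NPC2 moved the opposite way. Its low scan ratios were 0.39 and 0.41 in the control pools and -0.015 and 0.26 in the MB452 pools, a log2 difference of -0.28 (SE 0.10 in the gene fit). The control pools were alike and both treated pools were below them. The low scan differences of the other saturated features were 0.18 for IDI1, 0.17 for DHCR7, -0.0042 for EBP and -0.080 for SCARB1. Feature by feature, 8 of 56 passed the threshold as increased in the mean of both scans, against 1.30% of all features, and 0 as decreased, against 0.800%. In the low scan alone 10 of 56 passed as increased, against 1.11%, and 2 as decreased (NPC2 and 1 of 2 features of TM7SF2), against 1.23%.

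**Figure D3:**
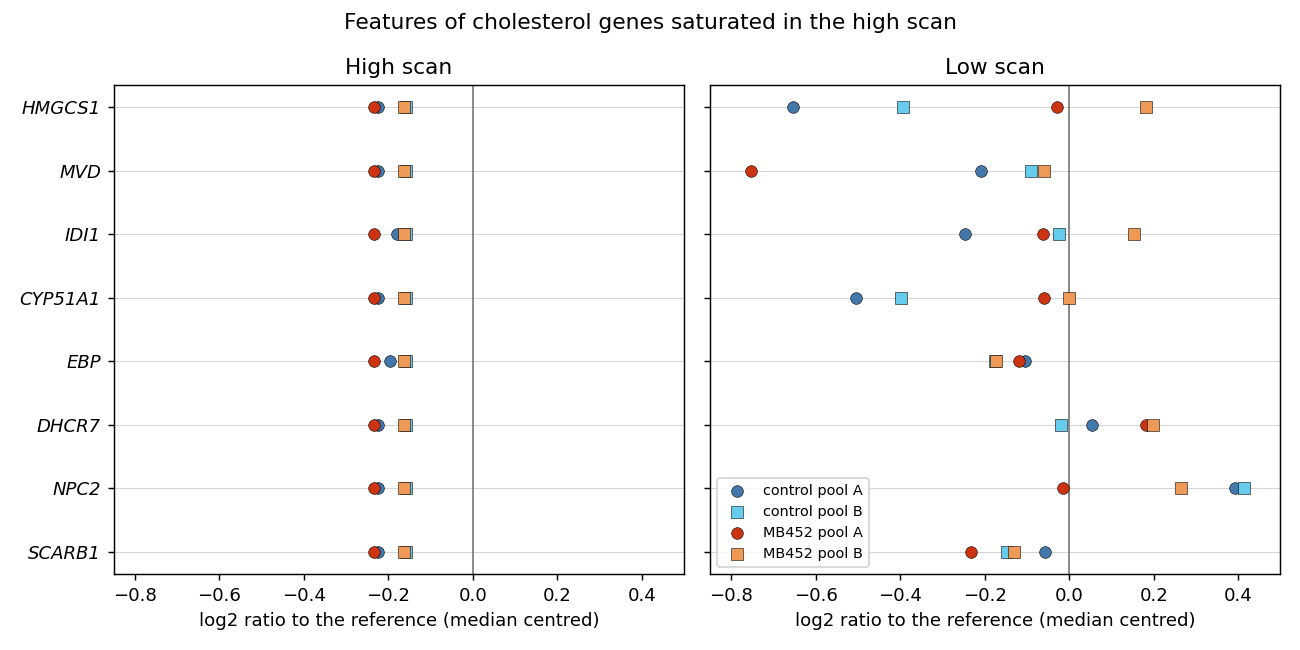
Log2 ratio to the reference (horizontal axes, median centred) of the 8 features of these genes that were saturated in the high scan on 3 or 4 slides, in the high scan (left) and the low scan (right), with 1 point for each pool. The high scan points fall on the repeated values, while in the low scan HMGCS1 and CYP51A1 are higher and NPC2 is lower in the MB452 pools. The MVD feature was saturated in the low scan as well.

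When the low scan replaced the high scan for saturated features, and features saturated in both were left out, 4 of the 34 members passed the threshold as increased, against 1.79% of all genes, and 1 as decreased, against 1.16%. This combination was chosen after the data were seen. The increased genes were HMGCS1, with a log2 difference of 0.76, CYP51A1 with 0.38, INSIG1 with 0.79 and STARD4 with 0.45, and the decreased gene was NPC2 with -0.28. SREBF2 (0.26) and SQLE (0.22) did not pass. With the low scan alone the increased genes numbered 7, the 6 genes and MSMO1, against 0.847% of all genes, and NPC2 was decreased, against 1.33%.

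**Figure D4:**
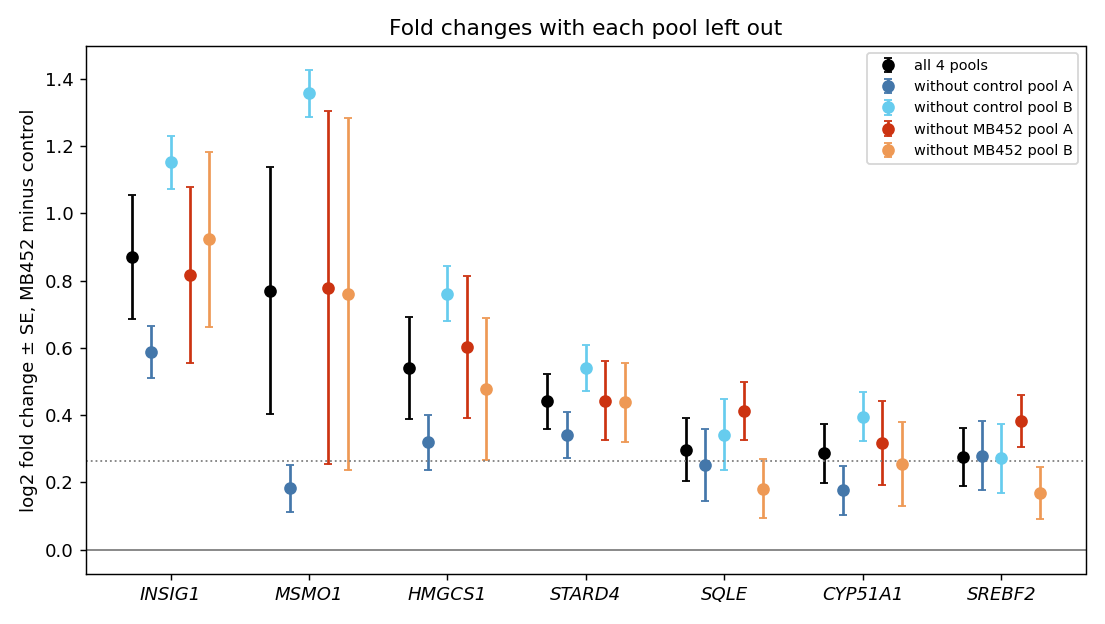
Log2 fold change ± SE, MB452 minus control (vertical axis), of the 6 genes past the threshold and MSMO1, with all 4 pools and with each pool left out. INSIG1, STARD4 and HMGCS1 stay above the dotted line, a 1.2-fold difference, in each fit. The line marks the fold size and not the p part of the threshold. MSMO1 runs from 0.18 without control pool A to 1.36 without control pool B.

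Genes next to these pathways were examined with the same fit. Of 15 measured genes of the branches from mevalonate and of late sterol synthesis, 0 passed as increased and 1 as decreased. Of all genes, 1.04% passed as increased and 0.868% as decreased. The median log2 difference of the 15 genes was -0.012. The decreased gene was LBR, the lamin B receptor, which also has sterol reductase activity like TM7SF2. Its ratios were 0.45 and 0.24 in the control pools and 0.11 and -0.013 in the MB452 pools, a log2 difference of -0.29 (SE 0.093, adjusted p = 0.712 in limma). In the high scan alone LBR had -0.24 and did not pass. None of 8 measured genes of SREBP processing and sterol-regulated degradation passed in either direction (median -0.0065). Nor did any of 8 of oxysterols and liver X receptors (median -0.035) or of 15 of sterol carriers and ester hydrolases (median -0.00094). With 1.91% of all genes passing in either direction, lists this small may hold none. In the low scan alone LIPA, the lysosomal acid lipase that frees cholesterol from esters, passed as decreased with -0.28, against 1.33% of all genes. It is named after its value was seen. None of 12 markers of enterocytes and epithelium passed, and none of 6 markers of immune, endothelial, fibroblast and muscle cells. Of all genes, 1.91% passed in either direction. The only feature of CDH1, of EPCAM and of KRT19 was saturated in both scans, so these markers were not measured and could not pass. With features saturated in both scans left out, 9 of the 12 remained and 0 passed. A feature of 6 of the 12 epithelial markers was saturated on all 4 high scans and none of the 6 others was, and ratios to a reference can show no more of their presence.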

How the data were processed

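RNA pools of control and MB452-treated Caco-2 cells were measured on 2-colour Agilent whole genome arrays, 4 slides with 2 scans each. Per the labels and methods, the pool was labelled with Cy5 and the reference, equal amounts of RNA from all wells, with Cy3, although the short name of that channel reads as a control or MB452 reference. The reference was taken as common, and if it differed between groups the differences given would not compare MB452 with control pools directly. The authors quantified spots in GenePix, removed poor spots by hand, subtracted no background and loess normalized each array in limma (version not given). The deposited values are log2 ratios, Cy5 over Cy3, the log base being read from limma's usual scale. The authors' combination of both scans was not used here. All 8 columns were used and 0 left out. Column medians were 0.0046 to 0.017. No intensities or background values were used, and the number of slides limits the precision.

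In limma 3.58.1 (R 4.3.3), columns were median centred, scans of a slide averaged (avearrays) into 1 replicate, and features with values on all 4 slides averaged for each gene (avereps). MB452 minus control was fitted with lmFit and eBayes without covariates, and p-values were Benjamini-Hochberg adjusted over 17969 genes. Of 44290 features, 29033 had 1 symbol, 97 several and 15160 none, and 28992 symbols were updated by gene identifier. Described in full were members past the threshold and the member with the largest absolute difference in each class, other members having values where features or scans disagreed in sign or a paralogue was described, and from each neighbouring list up to 4 genes past the threshold. The members and lists were chosen with earlier results of these data known. Alternatives covered the scans, centring, scaling, missing values, the variance model, the fold minimum, features of a gene, the replicate letter and each pool left out.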

Additional observations from a re-analysis of the deposited data

How the results depend on the processing

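INSIG1 and STARD4 kept their direction and stayed past the 1.2-fold threshold under all alternatives of scan, scaling, variance model and pool, and INSIG1 alone passed a minimum of 1.5-fold. The members increased numbered 6 with both scans averaged, 3 in the high scan alone (1.75% of all genes), 1 above 1.5-fold (0.0167%) and 2 to 8 with a pool left out (1.06% to 1.95%), and for synthesis enzymes, 3 with both scans averaged, the counts were 1, 0 and 0 to 4. The members decreased numbered 0 with both scans averaged, 1 (NPC2) in the low scan alone and 1 with the low scan for saturated features, whether or not features saturated in the low scan were left out, and 0 to 1 (ABCG5, without control pool A, where 7.43% of all genes were decreased) with a pool left out. Quantile scaling gave 7 increased members, against 1.41% of all genes, MSMO1 being added. The slide as a random block gave 6, against 0.859% of all genes, with MSMO1 in place of SQLE.

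The labels do not say what the replicate letters stand for. Over all genes, A minus B in the control pools correlated at -0.017 with A minus B in the MB452 pools. Whether pools of the same letter shared a batch was not tested. With the replicate block 7 members, 4 of them synthesis enzymes, were increased, against 1.07% of all genes, MSMO1 being added. In that fit 0 members were decreased, against 1.41% of all genes. With control pool A left out 4.14% of all genes (744) had an adjusted p under 0.05 in limma, and INSIG1 was the 1 of 34 members among them, at 0.014. With control pool B left out 0.0501% (9 genes) had one, 2 of them members, INSIG1 at 0.015 and MSMO1 at 0.0033. Over all alternatives the adjusted p of INSIG1 ran from 0.014 to 0.999 and that of MSMO1 from 0.0033 to 0.999.

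Small differences changed sign. In the high scan alone these were IDI1 (-0.030), saturated there on 3 slides, and DHCR7 (-0.0075), saturated there on all 4. The DHCR7 value thus comes from the repeated values and is not a measurement. In the high scan, and also with the low scan for saturated features, they were SC5D (-0.11), HSD17B7 (0.0016) and ABCG1 (-0.0076). In the low scan alone they were NSDHL (-0.022), ABCG8 (0.00043) and SOAT1 (-0.013). With the feature of largest variance they were SREBF1 (-0.033), NPC1L1 (-0.029), ABCA1 (0.032) and SOAT1 (-0.050). With a pool left out the ranges were -0.069 to 0.0068 for MVK, -0.28 to 0.013 for MVD, -0.066 to 0.069 for NSDHL, -0.076 to 0.38 for INSIG2 and -0.080 to 0.12 for SCAP. They were -0.017 to 0.042 for NPC1L1, -0.22 to 0.12 for MYLIP, -0.066 to 0.037 for ABCA1, -0.012 to 0.066 for ABCG1, -0.012 to 0.020 for SOAT1 and -0.27 to 0.025 for SOAT2. The cause was not tested. With 2 pools in each group, no exact permutation of the pools could pass the threshold, and no signal over background was used here to grade single features.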
